A study of Mus musculus with 10 samples.

Results

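The genes described here build fatty acids and cholesterol. They were the 39 genes, chosen by symbol, of the SREBP regulators, of fatty acid synthesis and desaturation and of the mevalonate and sterol pathway. All 39 were among the 13837 genes in the table and all 39 passed the filter on low values. They fell into 6 genes of the SREBP machinery, 14 genes of the fatty acid branch and 19 genes of the sterol branch. Whole kidneys of 3-month-old mice were compared between 5 Rragc +/+ mice, called +/+ here, and 5 mice heterozygous for the knock-in allele S74N of Rragc, called KI/+. Rragc encodes RagC, a GTPase that brings the growth kinase complex mTORC1 to the lysosome when nutrients are present, and the S74N change keeps it in its activating form. The allele, which also carries silent changes, was made by genome editing in the embryo and was present in every cell of the body. Sex, feeding state and hour of sampling were not in the sources used here for these mice.

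Both branches are under the control of sterol regulatory element-binding proteins (SREBPs), transcription factors that are held in the endoplasmic reticulum by Scap and the Insig proteins and are released to the nucleus when sterols are scarce or insulin signalling is high. SREBP-1, from Srebf1, is known mainly for the fatty acid genes and SREBP-2, from Srebf2, for the cholesterol genes. mTORC1 is known to promote SREBP activity, and Lpin1 is one of the proteins through which it does so.

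Each value is a normalized count, the number of 3′ end reads of a gene divided by the size factor of its library. In this method the number of reads does not grow with the length of a transcript. The libraries held 6501552 to 7996087 reads in the 13837 genes of the table, and reads of other genes are not counted here. No difference in this depth between genotypes passed an exact permutation test (two-sided, p = 0.595). Mitochondrial transcripts made up 27.7% ± 2.41 of these reads in +/+ and 25.2% ± 1.25 in KI/+ kidneys (SD, n = 5 each, two-sided exact permutation p = 0.0952). Both tests pooled 2 runs of library codes, the first with +/+ mice 1 and 2 and KI/+ mouse 1. Within the second run, KI/+ libraries were all deeper, at 6872310 to 7393303 reads against 6501552 to 6728400 in +/+. Their mitochondrial share was lower, at 23.9% to 25.8% against 28.7% to 30.1%. In the first run KI/+ mouse 1 was also the deepest, and its share of 27.1% lay above 25.7% and 24.5% in +/+. Kidney identity was clear, with all 11 proximal tubule and all 9 distal nephron markers in the table. Rragc itself lay between 244 and 347 in +/+ and between 189 and 248 in KI/+ kidneys (log2 fold change −0.40, limma adjusted p = 0.0678). A point mutation is not visible in such counts, so this level does not check the genotype labels. Fewer cells of a type and less RNA per cell cannot be told apart in whole tissue.

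One feature of the libraries touched the results. Cfd, which encodes the fat cell protein adipsin, was at 3.65, 27.6, 3.4, 8.58 and 52.3 in +/+ mice 1 to 5 and at 807, 6.5, 0, 21.7 and 3504 in KI/+ mice 1 to 5. KI/+ mice 1 and 5 stood far above the other 8. Thrsp, a regulator of lipogenesis that is abundant in fat, showed the same split, with 317 and 909 in KI/+ mice 1 and 5 and 19.6 to 44.2 elsewhere. Fabp4, a fatty acid carrier of fat cells, was at 604 and 871 in these kidneys, and between 94.6 and 217 in the other 8. Of 12 adipocyte markers 5 were in the table, and Adipoq, Plin1, Retn and Lep were among the 7 not analysed here. The summed normalized count of the 5 ran from 2063 to 2568 in +/+, from 3954 to 4303 in KI/+ mice 2, 3 and 4, and up to 9479 over all KI/+ mice. Car3, carbonic anhydrase 3, made up most of the sum in the KI/+ mice 2, 3 and 4 and rose in all KI/+ kidneys (log2 fold change 1.41, limma adjusted p = 5.7e-07). KI/+ mouse 5 also stood highest of all 10 mice in 7 of 11 immune markers, among them the plasma cell gene Jchain, at 513 against 40.0 to 201 elsewhere, and Lyz2, lysozyme, at 507 against 153 to 253. C1qa, S100a8, S100a9 and Csf1r were not highest there, and Csf1r was the lowest of all 10 mice, at 774 against 821 to 1161. The summed immune markers were at 2781 in KI/+ mouse 5, between 1576 and 2068 in +/+ and between 1757 and 2084 in KI/+ mice 2, 3 and 4. KI/+ mouse 1, which these ranges leave out, was the highest of all 10 mice in S100a8, at 161, and S100a9, at 129. It also lay above the +/+ range in Ighm, at 40.8, Jchain, at 201, and C1qb, at 216. Its Ptprc, Lyz2, C1qa, C1qc, Csf1r and Adgre1 lay within the +/+ range. The members were therefore also compared between KI/+ mice 2, 3 and 4 and the 5 +/+ mice, and in a fit of all 10 mice with the log2 level of Cfd as covariate, both chosen after the data were seen. KI/+ mice 2, 3 and 4 all belong to the second run of library codes, while +/+ mice 1 and 2 belong to the first. Run and genotype are therefore partly mixed in the comparison of KI/+ mice 2, 3 and 4 with +/+.

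Promoters of members whose values are described in the next paragraphs are shown first. Letters known to bind the SREBPs or their partners are in capitals. They are 300 bases long, from 250 before to 50 after a listed transcription start, and come from RefSeq on GRCm38.p6, given 5′ to 3′ on the strand of the gene. Capitals mark CCAAT, the box bound by NF-Y, GGGCGG, the GC box bound by Sp1, and the sterol response element TCACNCCAC, each on either strand. Mvd (chr8:122443373-122443672, minus strand), Ebp (chrX:8193463-8193762, minus strand) and Me1 (chr9:86695865-86696164, minus strand, 1 of 2 listed starts) are the called genes with a sequence. Hmgcs1 (chr13:119690101-119690400, plus strand) is the 1 member whose promoter held the sterol response element.
Mvd: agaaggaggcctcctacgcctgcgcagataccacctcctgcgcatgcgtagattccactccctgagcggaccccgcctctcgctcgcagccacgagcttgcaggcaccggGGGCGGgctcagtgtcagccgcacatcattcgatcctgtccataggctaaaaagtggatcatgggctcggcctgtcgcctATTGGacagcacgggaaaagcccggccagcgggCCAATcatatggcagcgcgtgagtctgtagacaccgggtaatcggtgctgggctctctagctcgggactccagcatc
Ebp: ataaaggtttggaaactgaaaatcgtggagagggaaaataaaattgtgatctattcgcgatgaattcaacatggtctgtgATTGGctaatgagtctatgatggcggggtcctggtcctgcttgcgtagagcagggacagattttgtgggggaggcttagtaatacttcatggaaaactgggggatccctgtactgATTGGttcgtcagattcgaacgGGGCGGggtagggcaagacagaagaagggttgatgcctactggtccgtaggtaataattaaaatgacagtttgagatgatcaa
Me1: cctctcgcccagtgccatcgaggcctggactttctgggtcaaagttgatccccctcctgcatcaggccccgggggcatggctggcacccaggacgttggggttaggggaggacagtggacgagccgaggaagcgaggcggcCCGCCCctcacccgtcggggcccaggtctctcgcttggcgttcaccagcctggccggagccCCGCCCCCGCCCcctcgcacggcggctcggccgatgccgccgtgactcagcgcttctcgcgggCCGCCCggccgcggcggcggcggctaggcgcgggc
Hmgcs1: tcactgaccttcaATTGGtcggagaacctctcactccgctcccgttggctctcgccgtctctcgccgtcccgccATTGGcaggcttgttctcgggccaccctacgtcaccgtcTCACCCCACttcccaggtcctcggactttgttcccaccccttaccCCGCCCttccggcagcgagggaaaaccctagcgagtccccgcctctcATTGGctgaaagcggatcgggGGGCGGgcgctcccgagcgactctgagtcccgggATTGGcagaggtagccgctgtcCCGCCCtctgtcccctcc

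The Mvd and Ebp promoters each held 2 CCAAT boxes and 1 GC box. The Me1 promoter held 4 GC boxes, of which 2 stand end to end, and no CCAAT box, and that of Hmgcs1 held 4 CCAAT boxes, 3 GC boxes and the sterol response element. Promoters were listed for 32 of the 39 members. A CCAAT box was found in 14 of the 18 listed sterol branch promoters, or 77.8%, against 53.8% of 13 in the fatty acid branch and 37.4% of all 32851 mouse promoters of the same length. The GC box was in 83.3% of sterol branch promoters, 53.8% of fatty acid branch promoters and 35.7% of all. The sterol response element was in 1 of 18 sterol branch promoters, or 5.56%, and in 1.24% of all. It was in 0 of 13 fatty acid branch promoters and in 0 of 11 promoters of the SREBP machinery. The E-box CACGTG was in 16.7%, 7.69% and 7.15% in the order of sterol branch, fatty acid branch and all promoters. Several genes list more than 1 start, and their windows overlap. A match is only a description of these letters.

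Across the 39 genes, 4 rose in KI/+ kidneys and none fell. These were Scd1 and Me1 of the fatty acid branch and Mvd and Ebp of the sterol branch. The test was limma on log2(normalized count + 1), with Benjamini-Hochberg adjustment over the 13197 genes tested and a threshold of 0.05. The share called was 10.3% of members, where 3.69% of all genes tested were called, 1.67% as higher and 2.02% as lower. The log2 fold change was above 0 in 32 of the 39, or 82.1%, against 50.1% of all genes. The KI/+ kidneys lay wholly above the +/+ kidneys in 7 members, or 17.9%, against 2.29% of all genes, and wholly below in none, against 2.71% of all genes. An unadjusted limma p under 0.05 was reached by 15 members with higher values in KI/+, against 7.96% of all genes, and by 1, Acacb, with lower values. The median log2 fold change of the members was 0.23, beside a median of all genes tested that rounds to 0.00.

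**Figure D1:**
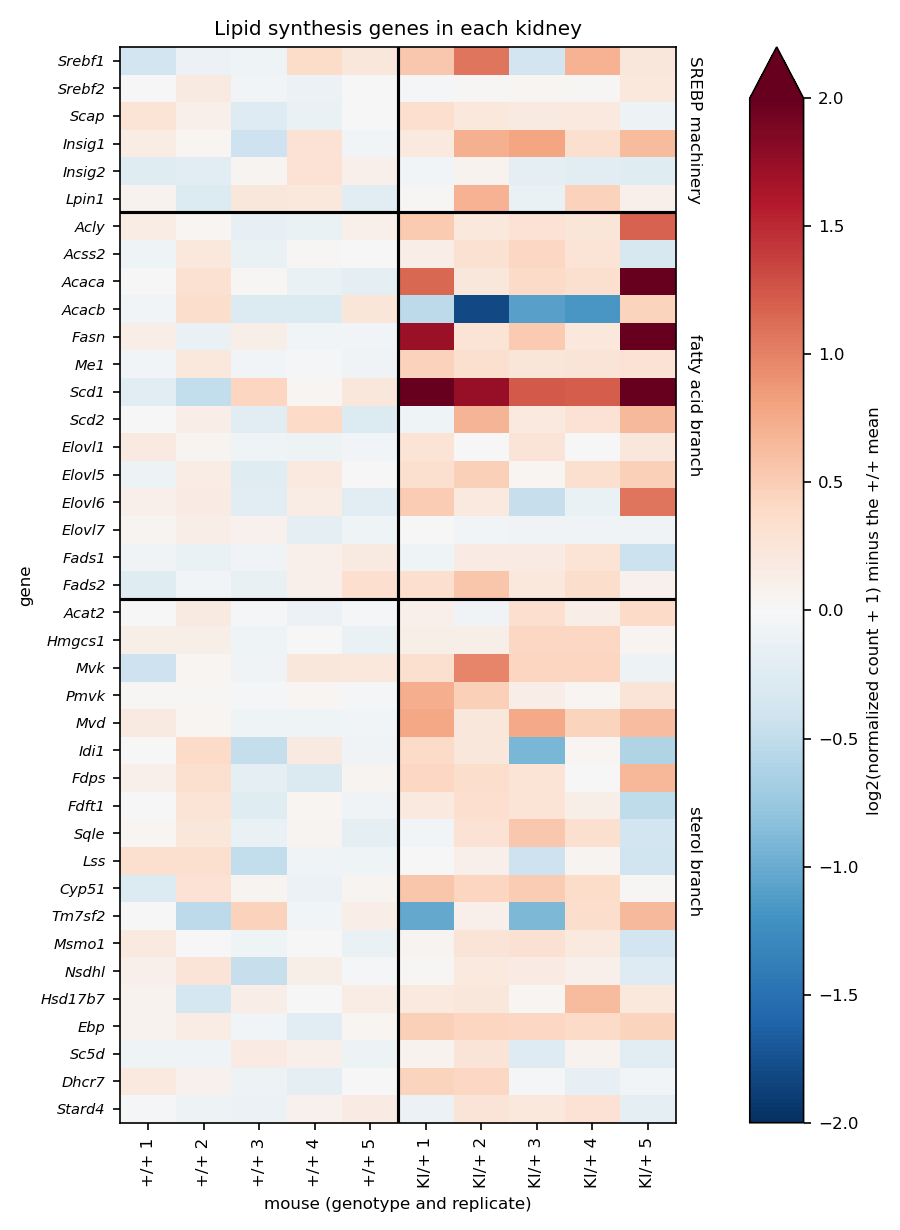
Colour shows log2(normalized count + 1) of each of the 39 genes in each kidney, minus the mean of the 5 +/+ kidneys, with red for higher and blue for lower values and colours capped at 2. Rows are genes, grouped by branch, and columns are mice. Scd1 is red in all 5 KI/+ mice, Fasn and Acaca are darkest in KI/+ mice 1 and 5, Acacb is blue in KI/+ mice 1 to 4, and many sterol branch genes of KI/+ mouse 5 are blue or pale.

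In the regulatory machinery 0 of 6 genes passed with limma or edgeR and 1, Insig1, with DESeq2. An unadjusted limma p under 0.05 was found in 1 of the 6, also Insig1, against 15.4% of all genes in either direction. Srebf1 was at 21.9, 26.7, 27.2, 37.5 and 34.2 in +/+ and at 42.7, 62.3, 22.1, 47.4 and 34.1 in KI/+ mice. The groups overlapped, and the log2 fold change of 0.43 had a 95% interval from −0.09 to 0.95 (limma adjusted p = 0.443). Reads at the 3′ end do not separate the isoforms of Srebf1. Srebf2 was at 299, 343, 289, 279 and 301 in +/+ and at 297, 308, 311, 306 and 347 in KI/+ mice, with a log2 fold change of 0.06 and a 95% interval from −0.13 to 0.25. The ranges of Srebf2 nearly coincided, and the interval holds changes of either direction.

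Scap, the escort of the SREBPs, was at 423, 378, 295, 321 and 353 in +/+ and at 443, 407, 396, 403 and 328 in KI/+ mice. The groups overlapped (log2 fold change 0.16, 95% interval −0.07 to 0.39). Insig1, which retains the SREBP and Scap complex and is itself a classical SREBP target, was at 153, 142, 103, 168 and 133 in +/+ and at 158, 227, 241, 173 and 215 in KI/+ mice. All KI/+ values but that of mouse 1 exceeded every +/+ value. The log2 fold change of Insig1 was 0.53 ± 0.14 (SE), just outside the threshold (limma adjusted p = 0.0503), and the same gene passed it without KI/+ mouse 1 (log2 fold change 0.61, adjusted p = 0.029) and without +/+ mouse 4 (0.60, adjusted p = 0.0464), and just inside it with the run of library codes (adjusted p = 0.0494) or Cfd (adjusted p = 0.0475) as covariate. It was at 0.61 in KI/+ mice 2, 3 and 4 (adjusted p = 0.0536). Its paralog Insig2 was at 113, 116, 139, 164 and 143 in +/+ and at 129, 141, 118, 115 and 113 in KI/+ mice, overlapping, with a log2 fold change of −0.12 (95% interval −0.39 to 0.14). The log2 ratio of Insig1 to Insig2 ran from −0.43 to 0.43 in +/+ and from 0.29 to 1.03 in KI/+ mice, with some overlap. Lpin1, a phosphatidate phosphatase, had a log2 fold change of 0.23 (95% interval −0.08 to 0.54).

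The fatty acid branch was led by Scd1, stearoyl-CoA desaturase, which makes monounsaturated from saturated fatty acids. Scd1 was at 498, 411, 779, 589.6 and 677 in +/+ and at 2369, 1939, 1354, 1339 and 4855 in KI/+ mice. Each KI/+ kidney lay above all +/+ kidneys, and mouse 5 was the highest. Scd1 rose 3.63-fold on the scale of log2(normalized count + 1), a log2 fold change of 1.86 ± 0.26 (SE, n = 5 each, limma adjusted p = 0.000311). In KI/+ mice 2, 3 and 4, where Cfd was between 0 and 21.7, it rose 2.63-fold (log2 fold change 1.40, adjusted p = 9.42e-05). It passed the threshold in all 25 alternative analyses, with adjusted p between 2.12e-05 and 0.0309. The adjacent family member Scd2 had a log2 fold change of 0.34 (95% interval 0.02 to 0.67, adjusted p = 0.287) and did not pass. The log2 ratio of Scd1 to Scd2 ran from 1.06 to 2.34 in +/+ and from 2.60 to 4.10 in KI/+ mice, without overlap. Reads that fit both genes are uncertain, since the alignment allowed several places for 1 read.

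Me1, malic enzyme, which supplies NADPH for fatty acid synthesis, was at 1538, 1842, 1529, 1574 and 1515 in +/+ and at 2195, 1988, 1896, 1899 and 1947 in KI/+ mice. No KI/+ kidney fell within the +/+ range. Me1 rose by 0.31 ± 0.08 (log2 fold change, SE, limma adjusted p = 0.0346), and its call was close to the threshold. It was lost when +/+ mouse 1, 3, 4 or 5 or KI/+ mouse 1, 2 or 4 was left out, with adjusted p from 0.0553 (without KI/+ mouse 4) to 0.111 (without +/+ mouse 5) and a log2 fold change between 0.28 and 0.33. In KI/+ mice 2, 3 and 4 the log2 fold change was 0.27 (adjusted p = 0.151).

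The enzymes that make palmitate from citrate showed their highest values in the kidneys with high Cfd. Acly, ATP citrate lyase, which yields cytosolic acetyl-CoA, was at 542, 502, 435, 445 and 522 in +/+ and at 701, 565, 599, 575 and 1103 in KI/+ mice. The groups did not overlap, and the log2 fold change was 0.49 ± 0.15 (limma adjusted p = 0.082) over all mice and 0.25 in KI/+ mice 2, 3 and 4 (adjusted p = 0.305). Acaca, acetyl-CoA carboxylase 1, the committed step of synthesis, was at 136, 167, 137, 123 and 119 in +/+ and at 302, 159, 177, 169 and 618 in KI/+ mice. Only KI/+ mouse 2 fell within the +/+ range of Acaca, and the log2 fold change went from 0.85 ± 0.27 (adjusted p = 0.107) over all mice to 0.31 (adjusted p = 0.367) in KI/+ mice 2, 3 and 4.

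Fasn, fatty acid synthase, was at 564, 467, 557, 493 and 492 in +/+ and at 1700, 623, 741, 595 and 3811 in KI/+ mice. All KI/+ values exceeded all +/+ values, while KI/+ mice 1 and 5 stood far above the other 3. The log2 fold change was 1.13 ± 0.36 (limma adjusted p = 0.105), and 0.34 in KI/+ mice 2, 3 and 4 (adjusted p = 0.12). With edgeR on the recovered reads Fasn passed the threshold (log2 fold change 1.54, adjusted p = 0.0347). With Cfd as covariate the log2 fold changes of Fasn, Acaca and Acly were 0.73, 0.56 and 0.35 (limma adjusted p = 0.114, 0.134 and 0.136), lower than without it and still above 0.

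Acacb, acetyl-CoA carboxylase 2, whose product malonyl-CoA restrains mitochondrial fatty acid oxidation, went the other way and is named after its values were seen. It was at 73.9, 98.7, 63.5, 63.2 and 90.8 in +/+ and at 53.1, 21.4, 35.7, 33.6 and 105 in KI/+ mice. KI/+ mice 1 to 4 lay below every +/+ mouse, and KI/+ mouse 5 lay above them all. Over all mice the log2 fold change was −0.82 (95% interval −1.45 to −0.20, limma adjusted p = 0.165). It was −1.14 without KI/+ mouse 5 (adjusted p = 0.00602), and −1.35 in KI/+ mice 2, 3 and 4 (adjusted p = 0.00143), so that in those fits Acacb fell. The log2 ratio of Acaca to Acacb ran from 0.38 to 1.1 in +/+ and from 2.27 to 2.84 in KI/+ mice, and here KI/+ mice 1 and 5, at 2.48 and 2.54, lay within the range of the other 3.

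The other 7 genes of the branch were not called. Among the elongases, Elovl5 had a log2 fold change of 0.32 (adjusted p = 0.128, and 0.0454 without KI/+ mouse 3, at 0.39). Elovl1 and Elovl7 had values of 0.15 and −0.05. Elovl6, which extends palmitate, was at 0.24 over all mice and at −0.13 in KI/+ mice 2, 3 and 4. The desaturases of polyunsaturated fatty acids, Fads1 and Fads2, had log2 fold changes of 0.02 and 0.31 (95% intervals −0.24 to 0.28 and 0.07 to 0.55), and Acss2, which makes acetyl-CoA from acetate, had 0.16. In KI/+ mice 2, 3 and 4 Acss2 was at 0.33 and did not overlap with +/+ (adjusted p = 0.0817).

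**Figure D2:**
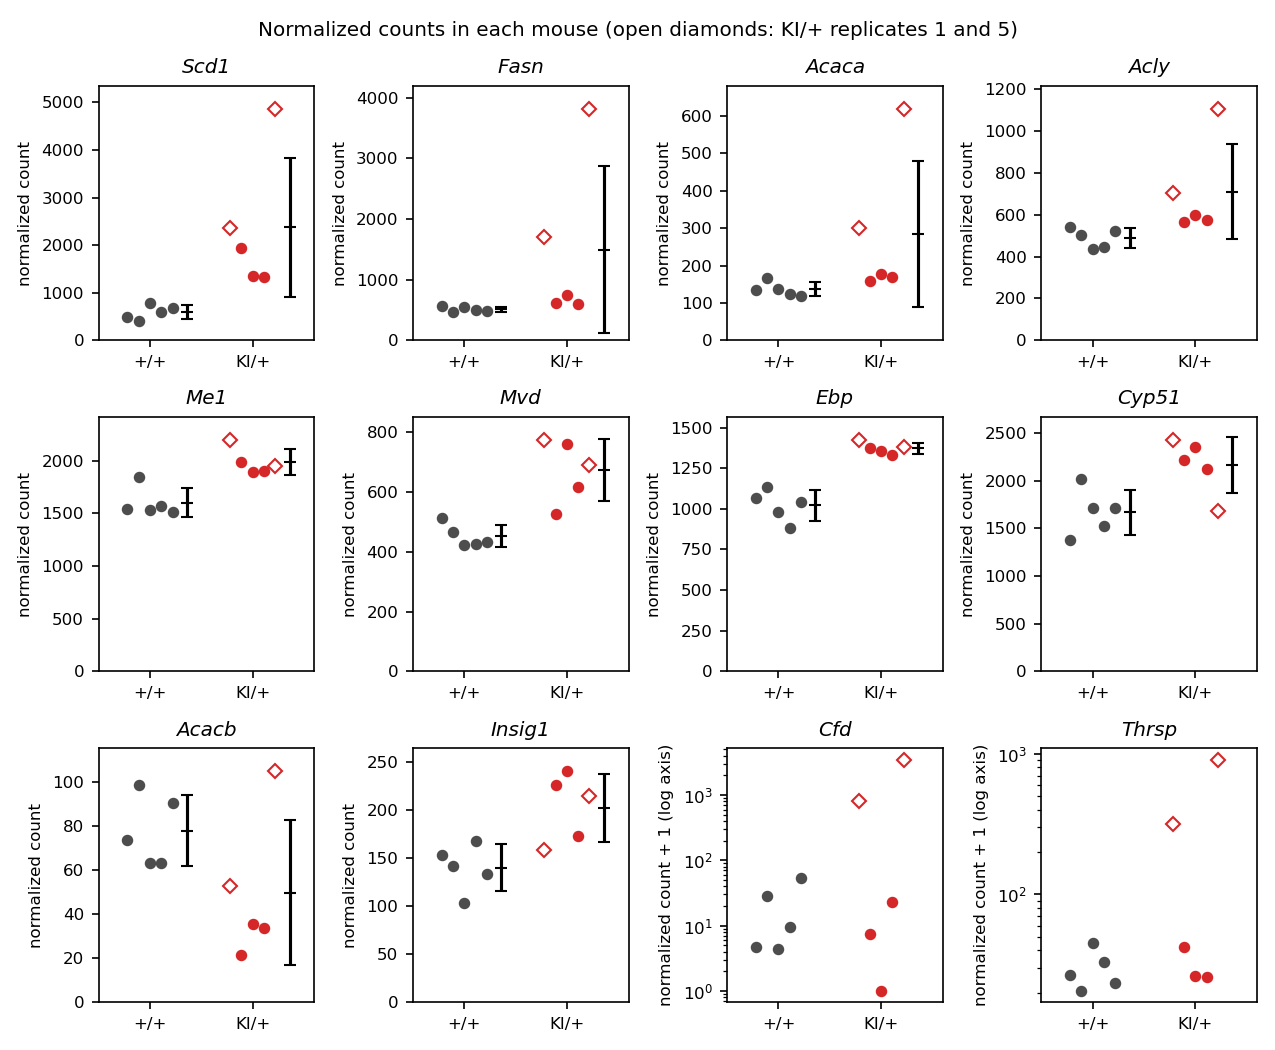
Normalized counts of 12 genes in each mouse, with +/+ in grey and KI/+ in red and open diamonds for KI/+ mice 1 and 5. Bars beside the points are the mean and SD of 5 mice, and Cfd and Thrsp are drawn as count + 1 on a log axis without them. Cfd, Thrsp, Fasn and Acaca are highest in the 2 open diamonds, Ebp and Me1 have the KI/+ mice close together above +/+, and Acacb has KI/+ mouse 5, at 105, above all others.

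In the sterol branch Mvd and Ebp rose in KI/+ kidneys. Mvd, mevalonate diphosphate decarboxylase, which forms isopentenyl diphosphate, was at 512, 465, 424, 426 and 435 in +/+ and at 774, 526, 759.8, 618 and 691 in KI/+ mice. The genotypes did not overlap. Mvd rose by 0.56 ± 0.11 on the log2 scale (SE, limma adjusted p = 0.0041), and by 0.47 in KI/+ mice 2, 3 and 4 (adjusted p = 0.0378). Ebp, the sterol isomerase of the late pathway, was at 1069, 1133, 979, 883 and 1044 in +/+ and at 1423, 1372, 1354, 1333 and 1380 in KI/+ mice. The KI/+ mice lay within a narrow band above all +/+ mice, with means of 1372 ± 33.4 and 1022 ± 95.1 (SD). Ebp rose by 0.43 ± 0.08 on the log2 scale (limma adjusted p = 0.00356), and by 0.41 in KI/+ mice 2, 3 and 4 (adjusted p = 0.0225). Mvd and Ebp passed the threshold in all 25 alternative analyses, with adjusted p of at most 0.0378 and 0.0326.

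Cyp51, lanosterol demethylase, was at 1375, 2013, 1710, 1522 and 1714 in +/+ and at 2425, 2221, 2357, 2122 and 1684 in KI/+ mice. All KI/+ mice but mouse 5 lay above the +/+ range, and the log2 fold change was 0.38 ± 0.11 (limma adjusted p = 0.0707). Cyp51 passed the threshold without KI/+ mouse 5 (0.46, adjusted p = 0.0113), without +/+ mouse 2 (0.45, adjusted p = 0.0319), in KI/+ mice 2, 3 and 4 (0.43, adjusted p = 0.04), with the run of library codes as covariate (0.40, adjusted p = 0.0405) and with DESeq2 (0.37, adjusted p = 0.0405).

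Hmgcs1, HMG-CoA synthase, the entry into the mevalonate pathway, was at 2802, 2801, 2429, 2565 and 2362 in +/+ and at 2817, 2818, 3450, 3449 and 2678 in KI/+ mice. Only KI/+ mouse 5 was inside the +/+ range, and KI/+ mice 1 and 2 lay just above it (log2 fold change 0.23 ± 0.09, adjusted p = 0.222, and 0.32, adjusted p = 0.108, in KI/+ mice 2, 3 and 4). Pmvk, phosphomevalonate kinase, was at 98.6, 98.7, 94.1, 99.7 and 94.0 in +/+ and at 161, 135, 106, 99.8 and 116 in KI/+ mice. The groups touched without overlapping, since KI/+ mouse 4 stood a fraction above the highest +/+ mouse, and the log2 fold change was 0.32 ± 0.13 (adjusted p = 0.237), and 0.21 (adjusted p = 0.64) in KI/+ mice 2, 3 and 4.

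The remaining 14 sterol branch genes did not pass. In the mevalonate steps Mvk had a log2 fold change of 0.41, Fdps 0.34, Acat2 0.18 and Idi1 −0.18. From squalene synthase (Fdft1) on, Hsd17b7 had 0.26, Sqle 0.14, Dhcr7 0.12, Msmo1 0.09, Fdft1 0.08, Nsdhl 0.05, Sc5d −0.01, Lss −0.13 and Tm7sf2 −0.17, and Stard4, a carrier of cholesterol, had 0.09. Tm7sf2 had the lowest level of all members, with means of 15.0 and 14.4, and the widest interval of its branch, from −0.89 to 0.56. A missed threshold does not show that these genes were equal, and the 95% interval of Mvk reached 0.82. Mvk was at 0.61 in KI/+ mice 2, 3 and 4 (adjusted p = 0.171).

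**Figure D3:**
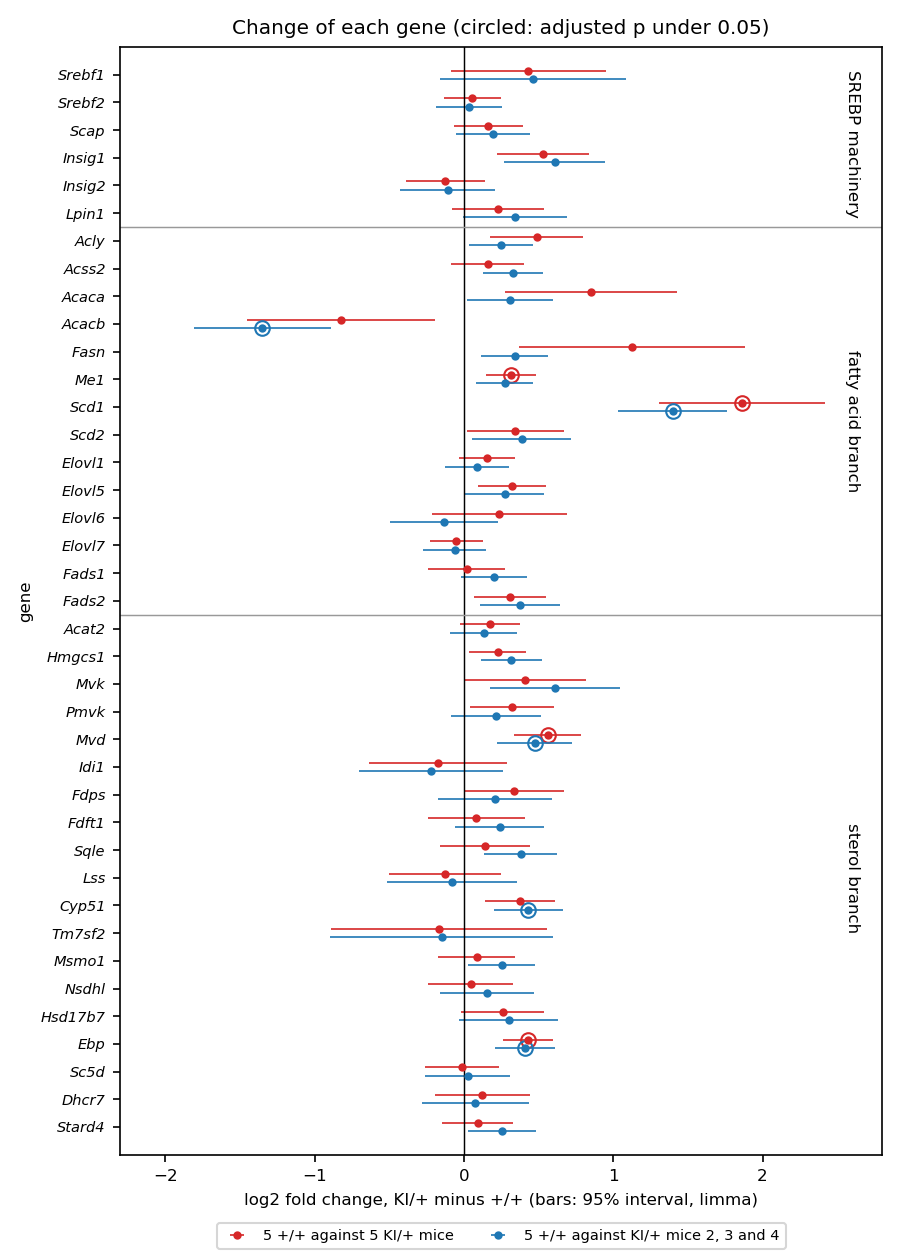
Log2 fold change of each gene, KI/+ minus +/+, with its 95% interval from limma, for all 10 mice in red and for KI/+ mice 2, 3 and 4 against the 5 +/+ mice in blue. Circled points had an adjusted p under 0.05. Fasn, Acaca and Acly move towards 0 from red to blue, Acacb moves away from it to −1.35, and Mvd, Ebp and Cyp51 stay between 0.38 and 0.56.

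Set side by side, 2 of 14 fatty acid genes and 2 of 19 sterol genes were called, 14.3% and 10.5%. A log2 fold change above 0 was found in 12 of 14 and 15 of 19, and the genotypes did not overlap, with KI/+ higher, in 4 and 3. The median log2 fold change was 0.31 in the fatty acid branch and 0.14 in the sterol branch. In KI/+ mice 2, 3 and 4 the medians were 0.27 and 0.24, and the difference between branches went from 0.17 to 0.03. There the sterol branch had 3 called genes, Mvd, Ebp and Cyp51, and 8 of 19, or 42.1%, without overlap, against 4.48% of all genes. In the same fit 2.8% of all genes were called, 1.16% as higher and 1.64% as lower, and 50.7% had a log2 fold change above 0, beside 32 of the 39 members. The fatty acid branch then had Scd1 higher and Acacb lower as called genes, and 5 of 14, or 35.7%, above +/+ without overlap. Acacb was the 1 member below +/+ without overlap, where 4.72% of all genes were.

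The branch value of a mouse is the median over the genes of a branch of the log2 deviation from the +/+ mean. It was −0.02, 0.13, −0.11, 0.00 and −0.03 for the fatty acid branch in +/+ mice and 0.32, 0.25, 0.23, 0.26 and 0.46 in KI/+ mice. For the sterol branch it was 0.04, 0.12, −0.09, 0.00 and −0.04 in +/+ and 0.19, 0.26, 0.27, 0.20 and −0.06 in KI/+ mice. The genotypes separated in the fatty acid branch, and in the sterol branch all KI/+ mice but mouse 5 lay above the +/+ mice. Fatty acid minus sterol values stayed between −0.06 and 0.02 in +/+ mice and were 0.13, 0.00, −0.04, 0.07 and 0.52 in KI/+ mice. KI/+ mouse 5 was the highest KI/+ mouse in 7 of 14 fatty acid genes and the lowest in 8 of 19 sterol genes. The same mouse was the lowest in 4 of the fatty acid genes and the highest in 3 of the sterol genes. It also had the highest Cfd and the highest summed immune markers. With Cfd as covariate the difference between the branch medians was 0.09, against 0.17 without it, and the part of the immune markers was not tested.

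**Figure D4:**
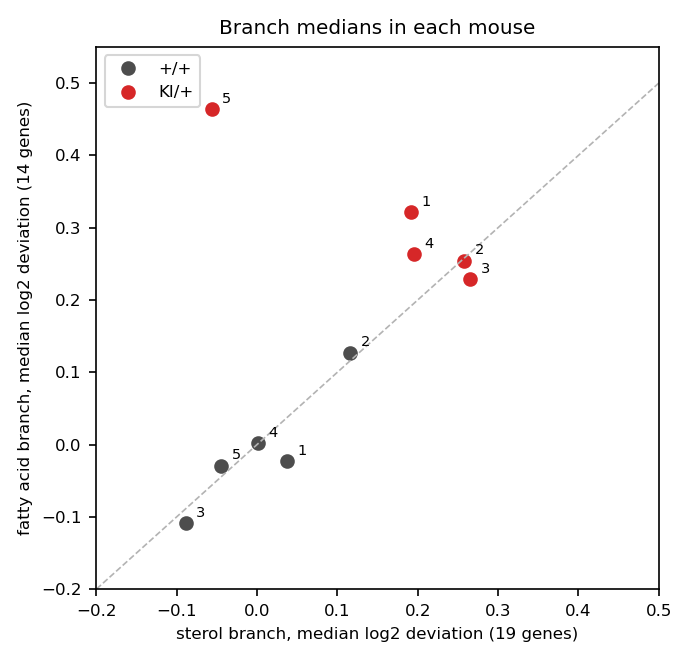
Each point is a mouse, numbered by replicate, with its median log2 deviation from the +/+ mean over 19 sterol branch genes (horizontal) and 14 fatty acid branch genes (vertical), and the dashed line marks equal values. KI/+ mice 1 to 4 lie up and to the right of the +/+ mice near the line, and KI/+ mouse 5 stands alone at −0.06 and 0.46.

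Clock genes, which are known to drive daily rhythms of lipid synthesis, were examined because the hour of sampling was not given. Over all 10 mice 0 of 13 clock genes passed with limma, with edgeR or with DESeq2. An unadjusted limma p under 0.05 was found in 3 of the 13, against 15.4% of all genes in either direction. Dbp was at 17.3, 16.0, 28.4, 66.5 and 45.9 in +/+ and at 14.2, 98.5, 85.1, 86.0 and 15.6 in KI/+ mice. KI/+ mice 2, 3 and 4 had the highest Dbp of all 10 mice and KI/+ mice 1 and 5 the lowest. Against +/+, KI/+ mice 2, 3 and 4 had higher Dbp (log2 fold change 1.54, adjusted p = 0.0225) and Tef (0.66, adjusted p = 0.00254) and lower Arntl (−0.80, adjusted p = 0.0198). Dbp was also low in the first run of library codes, at 17.3 and 16.0 in +/+ mice 1 and 2 and 14.2 in KI/+ mouse 1. In the second run KI/+ mouse 5 was at 15.6 and the other mice at 28.4 to 98.5. The Dbp, Tef and Arntl calls set KI/+ mice of the second run against +/+ mice of both runs. Clock gene levels thus moved with the choice of KI/+ mice and, for Dbp, with the run. The part of the clock genes in the values of the lipid genes was not tested.

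Genes that act around the 2 branches were examined as wider lists, beside 3.69% of all genes called by limma, 1.67% as higher and 2.02% as lower. Of 24 further fatty acid genes, Cyb5r3, the reductase that feeds electrons to desaturases through cytochrome b5, rose (log2 fold change 0.37, adjusted p = 0.0132), and so did Pgd of the NADPH-forming pentose phosphate pathway (0.41, adjusted p = 0.0424) and the acyl-CoA synthetase Acsl5 (0.36, adjusted p = 0.048). In the same list Fads6 fell (−0.86, adjusted p = 0.00204) and so did the acyl-CoA synthetase Acsl1 (−0.61, adjusted p = 0.0382). Of 16 glycerolipid and droplet genes, Fabp3, a fatty acid carrier, fell (−1.56, adjusted p = 0.000176), as did the droplet protein Plin3 (−0.40, adjusted p = 0.0397). Of 20 further genes of sterol synthesis, uptake and transport, 0 were called by limma or edgeR over all 10 mice and 1, Por, by DESeq2. Among the 20, 2 had an unadjusted limma p under 0.05, against 15.4% of all genes in either direction. Por, the reductase that supplies electrons to Cyp51 and Sqle, was at 0.29 (adjusted p = 0.0626) over all mice and was called in KI/+ mice 2, 3 and 4 (0.35, adjusted p = 0.0348). Of 9 LXR-related genes, Apoe fell (−0.77, adjusted p = 0.00782). In KI/+ mice 2, 3 and 4 the calls of Pgd (0.29, adjusted p = 0.243) and Acsl5 (0.35, adjusted p = 0.0948) were lost, as they were with Cfd as covariate (adjusted p = 0.0965 and 0.097), and Pgd was highest in KI/+ mouse 5, at 542. Cyb5r3, Fads6, Acsl1, Fabp3, Plin3 and Apoe were called in both fits, with log2 fold changes of 0.43, −0.74, −0.79, −1.25, −0.46 and −0.91 in KI/+ mice 2, 3 and 4.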

How the data were processed

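Kidney RNA was made into QuantSeq 3′ libraries, 1 per mouse. Per the labels and the study's methods, reads were aligned to GRCm39 with TopHat2 2.0.10, Bowtie 1.0.0 and SAMtools 0.1.19, and counted by strand on GENCODE with HTSeq 0.6.1. The authors deposited 1 table of signal, normalized counts that are reads divided by a size factor for each library. Whole reads were recovered for 100% of values (tolerance 0.01 of a read). Testing covered genes that reached a value of 10 in 5 or more mice, with limma 3.58.1 (trend, R 4.3.3) on log2(value + 1). edgeR 4.0.16 and DESeq2 1.42.0 on the recovered reads were alternatives, and the script was tested on simulated data. Genotypes came from the labels. Adjusted p-values are Benjamini-Hochberg values over all genes tested. The members and lists were chosen with earlier results of these data known, so lists are described by counts and medians without a test. Every-mouse values are given for called members, for the 5 main SREBP regulators and for the 3 uncalled members with the smallest p in the fatty acid and the sterol branch, and for Acacb, chosen after its values were seen. Replicates of a genotype differed beyond sampling noise (chi-square per degree of freedom of at least 2.35 in every pair). Nothing says how the mice were related, so p-values cover the spread between these mice. The library codes fell into 2 runs, 438 to 440 with 2 +/+ and 1 KI/+ mice and 453 to 466 with 3 +/+ and 4 KI/+ mice, and analyses with the run as covariate and within the second run were alternatives. The first run held 1 KI/+ mouse and was not analysed alone.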

Additional observations from a re-analysis of the deposited data

Results flagged for a closer look

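Over 86 groups of 5 mice (members and branch values in each genotype), 6 held a highest or lowest mouse whose gap to its neighbour was large against the range of the group by Dixon's criterion at the 95% level, and chance gives about 1 in 20 groups. KI/+ mouse 5 stood above the other KI/+ mice for Acly, at 1103, and for Srebf2, at 347. It stood below them for the sterol branch value, at −0.056. KI/+ mouse 1 stood high for Elovl7, at 548, and KI/+ mouse 4 for Hsd17b7, at 206. Among the +/+ mice, mouse 2 stood high for Me1, at 1842.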

How the results depend on the processing

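Scd1, Mvd and Ebp were called in all 25 alternatives. Me1 was not, and the cause was not tested. Of 973 gene and alternative pairs 919 kept their direction and their side of the threshold, 12 lost the call, 22 gained it and 20 in 7 genes changed sign. DESeq2 called 7 members (Insig1, Acly and Cyp51 besides the 4), and leaving out 1 mouse gave 3 to 6. The fatty acid branch had 1 called gene with quantile normalization or limma without the trend, and 1 to 3 when 1 mouse was left out. The machinery had 1, Insig1, with a pseudocount of 5, a mean of at least 50, robust variances, DESeq2, the run of library codes or log2 Cfd as covariate, or edgeR on KI/+ mice 2, 3 and 4, and 0 to 1 when 1 mouse was left out. Of all genes tested 2.21% were called without the trend, 6.30% with the run as covariate and 2.24% (without +/+ mouse 5) to 3.53% with 1 mouse left out, beside 3.69%. Elovl6, at 0.24 over all mice, was at −0.13 in KI/+ mice 2, 3 and 4 with limma and −0.13 with edgeR. Fads1 was at −0.012 with the run as covariate, −0.0236 within the second run, and −0.045 to 0.13 with 1 mouse left out. Lss was at 0.054 within the second run. Sc5d was at 0.025 in KI/+ mice 2, 3 and 4 with limma, 0.033 with edgeR, 0.0032 with Cfd as covariate and −0.082 to 0.047 with 1 mouse left out. With 1 mouse left out Idi1 ran from −0.32 to 0.010, Tm7sf2 from −0.37 to 0.050 and Nsdhl from −0.070 to 0.12. The median of the fatty acid branch ran from 0.25 to 0.36, that of the sterol branch from 0.10 to 0.23 and their difference from 0.05 (without KI/+ mouse 5) to 0.22 with 1 mouse left out. The alternatives on KI/+ mice 2, 3 and 4 and with Cfd as covariate were chosen after seeing the data. Those on KI/+ mice 2, 3 and 4 held 2 +/+ mice but no KI/+ mouse of the first run of library codes. No paired analysis was possible because the labels number no replicates, and the numbers here follow the order of the samples. With 5 mice a group, genes at the level of Tm7sf2 have wide intervals.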

Other observations

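A list of genes known as PPAR targets, with PPAR genes themselves, was chosen with earlier results known. Of these 16 tested, 9 rose, 7 did not pass and none fell, where 1.67% of all genes were called higher. The median log2 fold change of the 16 was 0.44 over all mice. In KI/+ mice 2, 3 and 4 it was 0.40, and 6 were called higher, beside 1.16% of all genes. The list does not hold every gene known as a PPAR target. Fabp3 and Acsl1, which were placed in other lists here, fell (log2 fold change −1.56 and −0.61, limma adjusted p = 0.000176 and 0.0382). Cyp4a14, a fatty acid omega-hydroxylase, was at 158, 176, 77.1, 92.2 and 155 in +/+ and at 1500, 1513, 418, 764 and 3138 in KI/+ mice, without overlap (log2 fold change 3.23, limma adjusted p = 4.02e-05). Its relative Cyp4a10 rose by 1.08 (adjusted p = 0.000236), and reads shared by close Cyp4a copies are uncertain. Vnn1, Acaa1b, Acot1, Cpt2 and Acadm rose by 0.83, 0.73, 0.49, 0.46 and 0.42.

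Of 11 immune markers 0 were called by limma, edgeR or DESeq2 over all 10 mice (3 had an unadjusted limma p under 0.05), although KI/+ mouse 5 had the highest value in 7 of them, and 1 of 3 adrenal markers in the table, Hsd3b2, fell (−0.67, adjusted p = 0.0039), while 11 other adrenal markers were not analysed here. All 4 Y-linked genes in the table were detected in all 10 kidneys. Of 9 distal nephron markers 4 fell, among them Umod, uromodulin, and Slc12a3, the thiazide-sensitive transporter, by 1.0 and 1.20 on the log2 scale. Of 11 proximal tubule markers, Slc22a6 rose and Slc5a2 and Slc5a12 fell. Of 11 markers of glomerulus and vessel, Ren1, renin, rose (1.09). Beside these lists, 3.69% of all genes tested were called by limma, 1.67% as higher and 2.02% as lower.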
